A study of Mus musculus with 8 samples.

Results

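The change from the thymus to the first 3 days of Matrigel culture was measured between *in vivo* TECs and day 3 (D3) organoids, which make up 4 of the 8 libraries of the study, 2 in each group. Thymic epithelial cells (TECs) came from the thymi of wild-type C57BL/6J mouse embryos at embryonic day 16.5, were freed by enzymatic digestion and were sorted for EpCAM. The stain for the sort also held antibodies to CD45, Ter119, CD31 and the PDGF receptors α and β, which mark blood, endothelial and mesenchymal cells. *In vivo* TECs were lysed straight after the sort, without treatment. For organoids, sorted TECs were seeded in growth factor-reduced Matrigel, a basement membrane extract, in a defined medium with FGF7 and, for the first 2 days, the ROCK inhibitor thiazovivin, and were taken out of the gel and lysed at day 3. No *in vivo* library saw the gel, the added FGF7, thiazovivin or the medium, so that their parts in a difference cannot be told apart. The paper counts FGF7 among the factors that come from mesenchyme, and exposure to it in the thymus was not measured. RNA was measured by QuantSeq, which counts the 3′ ends of polyadenylated transcripts. Values are CPM, the counts relative to library sizes that were scaled with edgeR's TMM method. The 4 libraries were chosen by their labels, and genes were tested where 2 or more of these libraries reached 1 CPM, which held for 14487 of 56923 genes.

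TECs of the cortex and the medulla build the niche in which thymocytes mature. The transcription factor FOXN1 sets up the programme of cortical TECs, which attract progenitors with chemokines, commit them to the T-cell fate with the Notch ligand DLL4 and present peptides made by a thymus-specific proteasome. Signals that pass between thymocytes and TECs shape both cell types. FGF7 binds the epithelial splice form of the receptor FGFR2, and the ERK pathway downstream of it switches on its own inhibitors of the Sprouty and DUSP families.

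Counts summed to 5710676 and 7003886 *in vivo* and to 5639934 and 6561971 in D3 organoids. The replicates of a group were further apart than counting noise allows, and the labels call them biological replicates. The p-values set a difference between groups against the spread between replicate libraries. An exact permutation test of 2 libraries against 2 cannot reach the threshold used here. The p-values given here rest instead on a spread estimated over all genes and all 8 libraries with edgeR's quasi-likelihood test. With a threshold of 0.05 on the p adjusted by the Benjamini-Hochberg method, 4576 genes differed (31.6% of those tested), of which 2465 were higher in D3 organoids (17.0%) and 2111 lower (14.6%). The larger direction turned with the scaling, since 47.9% of the calls were higher with DESeq2's size factors, beside 53.9% here. These shares are the background for the counts of gene lists below. The values of the 2 groups did not overlap in 9229 of the genes tested (63.7%). That share is the background wherever both libraries of a group are said to lie above or below both of the other. The median log2 fold change of D3 organoids over *in vivo* TECs was 0.06 over all genes tested. At least 2-fold changes were called in 1525 genes that rose and 1615 that fell. A gene with at most 3 counts in both libraries of 1 group (at the floor) passed the filter only through the other group. This sets the direction of its change. Unless a test is given, a value is a description.

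**Figure D1:**
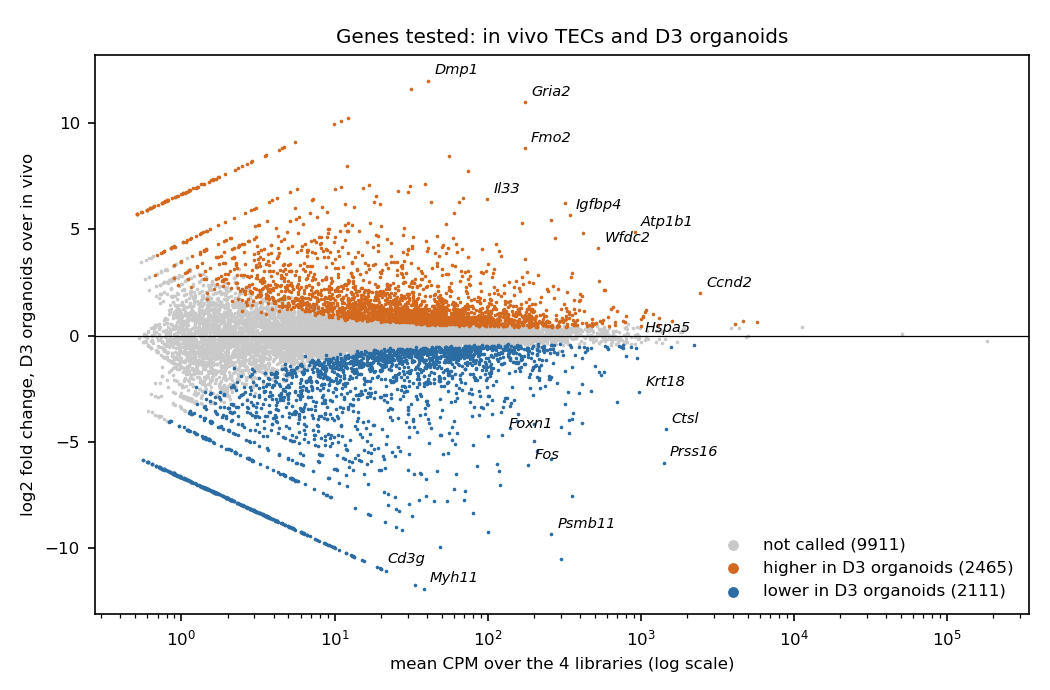
Log2 fold change of D3 organoids over *in vivo* TECs against the mean CPM of the 4 libraries (log scale) for each of the 14487 genes tested, coloured by the call at an adjusted p of 0.05. *Psmb11* and *Prss16* lie far below 0 at high CPM, *Ccnd2* and *Atp1b1* lie above it, and the slanted lines at the edges are genes with 0 counts in 1 of the groups.

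Most genes of the cortical programme fell. Of 16 genes of cortical TECs tested, 12 fell and 0 rose, with a median log2 fold change of -4.53. *Psmb11* (chr14:54858890-54867013 in GRCm39) encodes the β5t subunit of the thymoproteasome and had 497 and 543 CPM *in vivo* and 0.525 and 1.0 CPM in D3 organoids. *Dll4*, the Notch ligand that commits progenitors, had 108 and 107 CPM *in vivo* and 0.175 and 0.715 CPM in D3 organoids. Both genes were thus above 100 CPM in each *in vivo* library and at about 1 CPM or less in each D3 library. Their log2 fold changes were -9.33 (standard error 0.27, edgeR adjusted p = 5.6e-14) and -7.78 (standard error 0.41, edgeR adjusted p = 1.1e-10). *Tbata*, a gene of thymic stroma, had 666 and 541 CPM *in vivo* and 0.70 and 0.143 CPM in D3 organoids (log2 fold change -10.51, standard error 0.32, edgeR adjusted p = 1.1e-13). *Ccl25*, the chemokine for CCR9-bearing progenitors, had 737 and 675 CPM *in vivo* and 5.25 and 2.43 CPM in D3 organoids, and *Cd83*, which stabilizes MHC class II on the surface, had 131 and 151 CPM *in vivo* and 1.05 and 0.715 CPM in D3 organoids. For both, the groups stood over 100 CPM apart.

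*Foxn1* (chr11:78248403-78277384 in GRCm39) had 213 and 268 CPM *in vivo* and 9.1 and 9.87 CPM in D3 organoids (log2 fold change -4.66, standard error 0.25, edgeR adjusted p = 1.6e-10). Its transcript was thus counted well above the floor of 3 counts in both D3 libraries, with 52 and 69 counts. The thymus-specific serine protease gene *Prss16* had 2704 and 2832 CPM *in vivo* and 43.2 and 44.9 CPM in D3 organoids (log2 fold change -5.97, standard error 0.17, edgeR adjusted p = 5.6e-14). *Ctsl*, the protease of MHC class II peptide loading in the cortex, had 2817 and 2723 CPM *in vivo* and 129 and 133 CPM in D3 organoids, and the endocytic receptor gene *Ly75* had 343 and 411 CPM *in vivo* and 20.1 and 22.7 CPM in D3 organoids. These 4 genes fell by 4.13 to 5.97 on the log2 scale, and each stayed clearly detected at D3.

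Not all cytokine genes of this list fell as far as the chemokine gene *Ccl25* (log2 fold change -7.55). *Il7* and *Cxcl12* fell by less, and *Kitl* was not called. *Il7*, the growth factor of early thymocytes, had 314 and 333 CPM *in vivo* and 107 and 106 CPM in D3 organoids (log2 fold change -1.61, standard error 0.17, edgeR adjusted p = 7.9e-07). *Cxcl12*, the chemokine that holds progenitors in the cortex, had 546 and 572 CPM *in vivo* and 263 and 269.9 CPM in D3 organoids (log2 fold change -1.07, standard error 0.15, edgeR adjusted p = 1.8e-05). Both were lower in each D3 library than in each *in vivo* library, but stayed above 100 CPM. *Kitl*, the stem cell factor, had 169 and 176 CPM *in vivo* and 205 and 193 CPM in D3 organoids and was not called (log2 fold change 0.20, standard error 0.15, edgeR adjusted p = 0.36). Its values did not overlap between the groups, which also held for 63.7% of all genes tested.

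Genes of medullary TECs split between 9 that fell and 3 that rose, of 15 tested. *Aire* and *Fezf2*, which drive the expression of tissue-restricted antigens, had 4.96 and 9.91 CPM and 6.28 and 12.1 CPM *in vivo* and 0 counts in both D3 libraries. Against the floor of 3 counts per library, they were at least 15.6-fold and 19.3-fold lower. *Tnfrsf11a*, which encodes RANK, had 18.8 and 15 CPM *in vivo* and 0.70 and 1.43 CPM in D3 organoids, and *Cd40*, the other main receptor of medullary maturation, 21.2 and 23.4 CPM *in vivo* and 0 and 0.715 CPM in D3 organoids. *Spib*, a transcription factor downstream of RANK, had 31.1 and 36.5 CPM *in vivo* and 1.05 and 0.858 CPM in D3 organoids, and the chemokine gene *Ccl21a* 27.3 and 26.1 CPM *in vivo* and 1.58 and 1.0 CPM in D3 organoids. All 6 genes fell. Of the 3′ sequence of *Ccl21a*, 58.7% is shared with near copies, so that its reads may come from several genes. The 3 that rose were the claudin genes *Cldn3* and *Cldn4* and the basal keratin gene *Krt14*. *Cldn4* had 9.42 and 10.6 CPM *in vivo* and 56.7 and 55.3 CPM in D3 organoids (log2 fold change 2.48, standard error 0.18, edgeR adjusted p = 7.0e-09), and *Krt14* had 18.8 and 21.7 CPM *in vivo* and 53.9 and 41.5 CPM in D3 organoids (log2 fold change 1.23, standard error 0.18, edgeR adjusted p = 4.8e-05). All 5 reads of *Cd40* at D3 were counted in D3 replicate 2.

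The transcription factors that pattern the pharyngeal pouch and the thymic rudiment changed in both directions. Of 15 tested, 5 rose and 3 fell, with a median log2 fold change of 0.45. *Pax9* had 355 and 431 CPM *in vivo* and 381 and 343 CPM in D3 organoids and was not called (log2 fold change -0.12, standard error 0.15, edgeR adjusted p = 0.60), nor was *Hoxa3*, at 25.1 and 30.1 CPM *in vivo* and 38.5 and 35.3 CPM in D3 organoids. *Pax1*, the paralogue of *Pax9*, fell from 1182 and 1362 CPM *in vivo* to 678 and 535 CPM (log2 fold change -1.07, standard error 0.16, edgeR adjusted p = 3.7e-05). *Sox9*, a factor of progenitors in many epithelia, rose from 181 and 177 CPM to 675 and 629.5 CPM (log2 fold change 1.86, standard error 0.15, edgeR adjusted p = 2.0e-08). *Eya1* had 69.6 and 94.3 CPM *in vivo* and 131 and 144 CPM in D3 organoids and was called (log2 fold change 0.75, standard error 0.18, edgeR adjusted p = 0.0036), but not without *in vivo* replicate 1 (log2 fold change 0.55, edgeR adjusted p = 0.061).

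MHC class II genes fell without exception. All 9 of the tested genes of this list were called lower in D3 organoids. The median log2 fold change was -4.28 (-4.00 with genes at the floor set to their bound). At the floor in D3 organoids were 2 of the 9, which sets their direction. *Ciita*, the transactivator on which class II expression depends, had 99.5 and 91.9 CPM *in vivo* and 3.85 and 3.58 CPM in D3 organoids (log2 fold change -4.68, standard error 0.33, edgeR adjusted p = 4.4e-09). *H2-Aa*, the α chain of the I-A molecule, had 513 and 501 CPM *in vivo* and 9.28 and 9.01 CPM in D3 organoids. *H2-Ab1*, its β chain, had 570.5 and 568 CPM *in vivo* and 27.8 and 30.6 CPM in D3 organoids. For both chains the D3 values were far below those *in vivo*. *Cd74*, the invariant chain that fills the groove during transport, had 282 and 306 CPM *in vivo* and 16.8 and 19.9 CPM in D3 organoids (log2 fold change -4.00, standard error 0.22, edgeR adjusted p = 1.6e-10). The summed level of the list was 1743 and 1797 CPM *in vivo* and 98 and 105 CPM in D3 organoids. *H2-DMb1*, an editor of peptide loading, fell least, by 1.51 on the log2 scale, and its call was lost without *in vivo* replicate 2 (-1.21, edgeR adjusted p = 0.068) or D3 replicate 2 (-1.12, edgeR adjusted p = 0.11).

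In the class I pathway, 9 of 16 tested genes fell and 1 rose. The immunoproteasome subunit genes fell furthest. *Psmb9* had 108 and 108 CPM *in vivo* and 1.93 and 2.72 CPM in D3 organoids (log2 fold change -5.51, standard error 0.31, edgeR adjusted p = 2.2e-10), *Psmb10* had 278 and 305 CPM *in vivo* and 23.3 and 21.6 CPM in D3 organoids, and *Psmb8* had 31.6 and 16.8 CPM *in vivo* and 2.98 and 1.29 CPM in D3 organoids. No value of a D3 library reached a value of an *in vivo* library for these 3 genes. *B2m*, the light chain shared by all class I molecules, had 500.3 and 431 CPM *in vivo* and 94 and 106 CPM in D3 organoids (log2 fold change -2.22, standard error 0.16, edgeR adjusted p = 6.4e-09), and the peptide transporter gene *Tap1* had 67.4 and 61.4 CPM *in vivo* and 15.1 and 13.3 CPM in D3 organoids. The heavy chain gene *H2-K1* fell by 0.99 on the log2 scale (edgeR adjusted p = 3.2e-04). *Psmb9* and *Tap1* overlap on opposite strands, and the use of strand in counting is not given in the sources used here, so that reads of the pair may not be told apart.

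**Figure D2:**
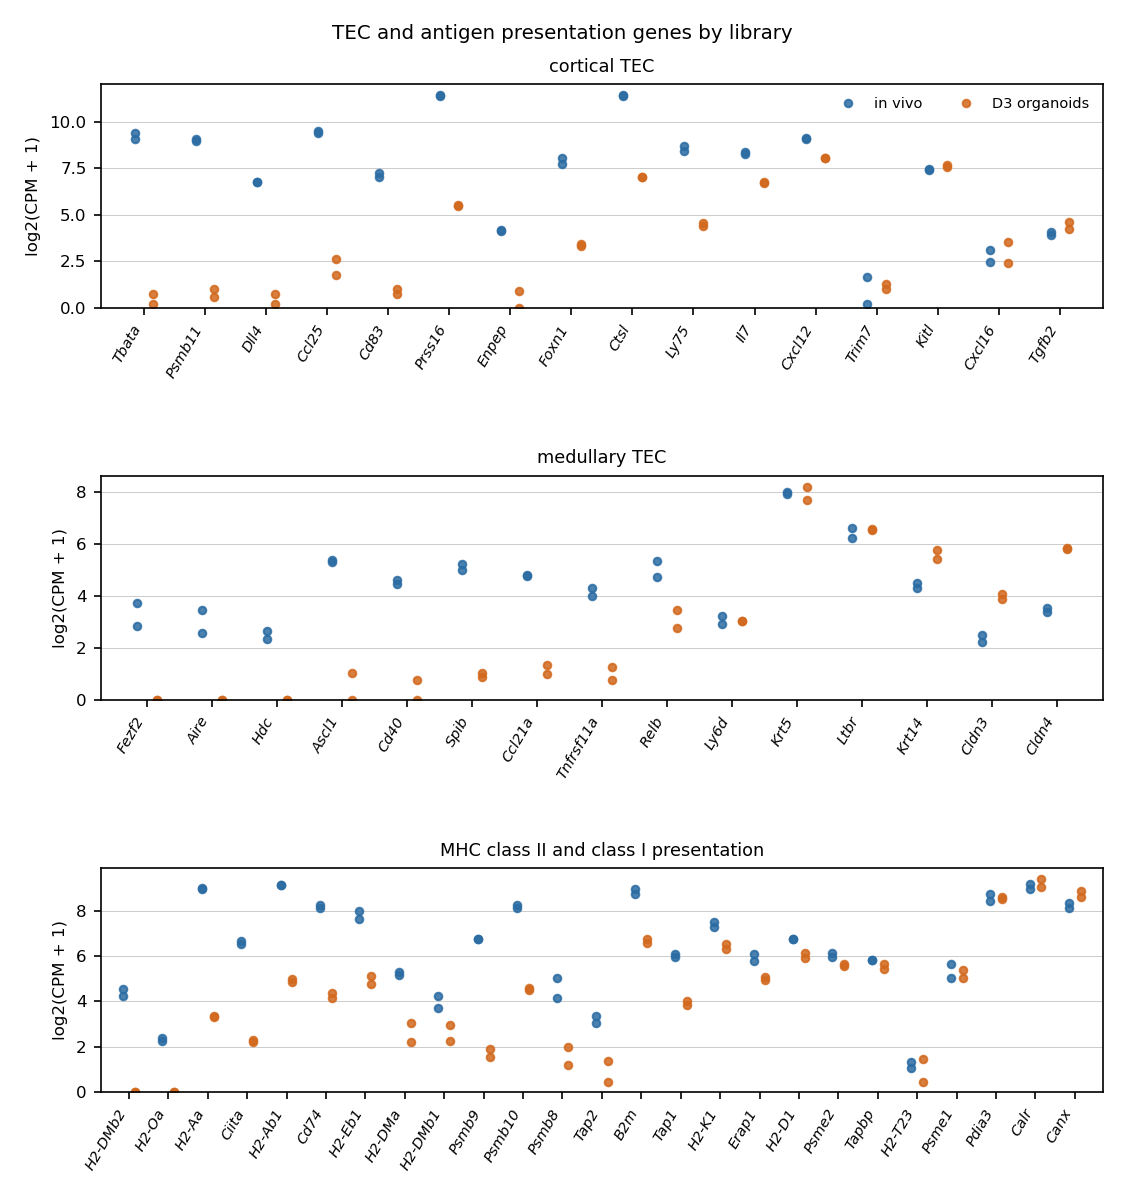
Level of each tested gene of the cortical TEC, medullary TEC and MHC lists in the 2 *in vivo* libraries and the 2 D3 organoid libraries, as log2(CPM + 1), with 1 point per library and genes ordered by log2 fold change within each list. *Psmb11*, *Tbata* and *Dll4* drop from over 100 CPM *in vivo* to about 1 CPM or less, whereas *Kitl* stays level.

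Genes of the interferon response formed a further group that fell. Interferons act through transcription factors that bind the interferon-stimulated response element in the promoters of their target genes. Of 27 such genes tested, 23 fell and 0 rose, with a median log2 fold change of -3.98 (-2.85 with genes at the floor set to their bound). At the floor in D3 organoids were 8 of the 27. They passed the filter only through the *in vivo* libraries, which sets their direction. The promoter of *Ifit3* is shown because it carries the element in 2 copies, which are in capitals (250 bases before the RefSeq start, chr19:34583279-34583528, plus strand of GRCm38.p6, with copies of TTTC, any 2 bases and TTTC).
Ifit3: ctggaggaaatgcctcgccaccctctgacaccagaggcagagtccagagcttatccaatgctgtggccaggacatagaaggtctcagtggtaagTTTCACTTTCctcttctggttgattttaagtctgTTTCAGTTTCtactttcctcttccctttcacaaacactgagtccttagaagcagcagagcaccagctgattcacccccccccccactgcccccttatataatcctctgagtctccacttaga
The element was found on either strand in 10 of the 19 genes of the list with a RefSeq promoter of 300 bases (52.6%), and in 3.7% of the 10300 tested genes with such a promoter. *Ifit3* had 16 and 13.8 CPM *in vivo* and 0 counts in both D3 libraries, and was at least 31.2-fold lower. *Ifi44*, an antiviral gene, had 111 and 127 CPM *in vivo* and 1.4 and 5.15 CPM in D3 organoids (log2 fold change -5.12, standard error 0.32, edgeR adjusted p = 8.1e-10). *Irf1*, the factor that links interferon to class I and immunoproteasome genes, had 175 and 158 CPM *in vivo* and 36.1 and 26.5 CPM in D3 organoids (log2 fold change -2.42, standard error 0.19, edgeR adjusted p = 2.1e-08). For each of these genes both D3 libraries were below both *in vivo* libraries. *Ifih1*, a sensor of double-stranded RNA, had 51.7 and 61.1 CPM *in vivo* and 84 and 60.9 CPM in D3 organoids and was not called.

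Immediate early genes, which are switched on within minutes by growth factors and by stress, were high in the freshly sorted cells. They include genes that digestion and sorting are known to induce. Of 28 tested, 22 fell and 0 rose, with a median log2 fold change of -2.76. *Fos*, a subunit of the AP-1 factor, had 366 and 357 CPM *in vivo* and 6.65 and 4.0 CPM in D3 organoids (log2 fold change -6.10, standard error 0.28, edgeR adjusted p = 1.9e-11). Its partner gene *Jun* had 651 and 649.6 CPM *in vivo* and 32.6 and 22.5 CPM in D3 organoids (log2 fold change -4.57, standard error 0.20, edgeR adjusted p = 9.0e-12). *Egr1*, a zinc-finger factor induced by serum, had 647 and 632 CPM *in vivo* and 54.4 and 27.6 CPM in D3 organoids, and *Junb*, another AP-1 gene, 421 and 355 CPM *in vivo* and 13.5 and 11.3 CPM in D3 organoids. For these 4 genes, each D3 library lay far below both *in vivo* libraries. The summed level of the list was 3555 and 3359 CPM *in vivo*, 456 and 348 CPM in D3 organoids and 2008 and 1837 CPM in TECs cultured for 3 days in 2D. The time from dissection to lysis and the culture differ together between the groups, so that they cannot be told apart.

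The *Dusp1* promoter is given for the immediate early genes because it holds the full cAMP response element, TGACGTCA, in capitals (chr17:26508473-26508722, minus strand of GRCm38.p6, RefSeq).
Dusp1: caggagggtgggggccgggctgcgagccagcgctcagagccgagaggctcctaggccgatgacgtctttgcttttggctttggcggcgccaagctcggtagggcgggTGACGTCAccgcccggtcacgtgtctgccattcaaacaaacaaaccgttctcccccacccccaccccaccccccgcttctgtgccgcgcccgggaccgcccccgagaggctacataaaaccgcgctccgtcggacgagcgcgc
This palindrome was found in 4 of 24 promoters of the list (16.7%) and in 3.49% of all. *Dusp1* encodes a phosphatase that switches off MAP kinases and had 78.2 and 53.7 CPM *in vivo* and 4.03 and 1.86 CPM in D3 organoids (log2 fold change -4.51, standard error 0.40, edgeR adjusted p = 8.2e-08). *Myc* had 16.5 and 11.8 CPM *in vivo* and 9.45 and 9.87 CPM in D3 organoids and was not called (log2 fold change -0.55, standard error 0.37, edgeR adjusted p = 0.29).

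**Figure D3:**
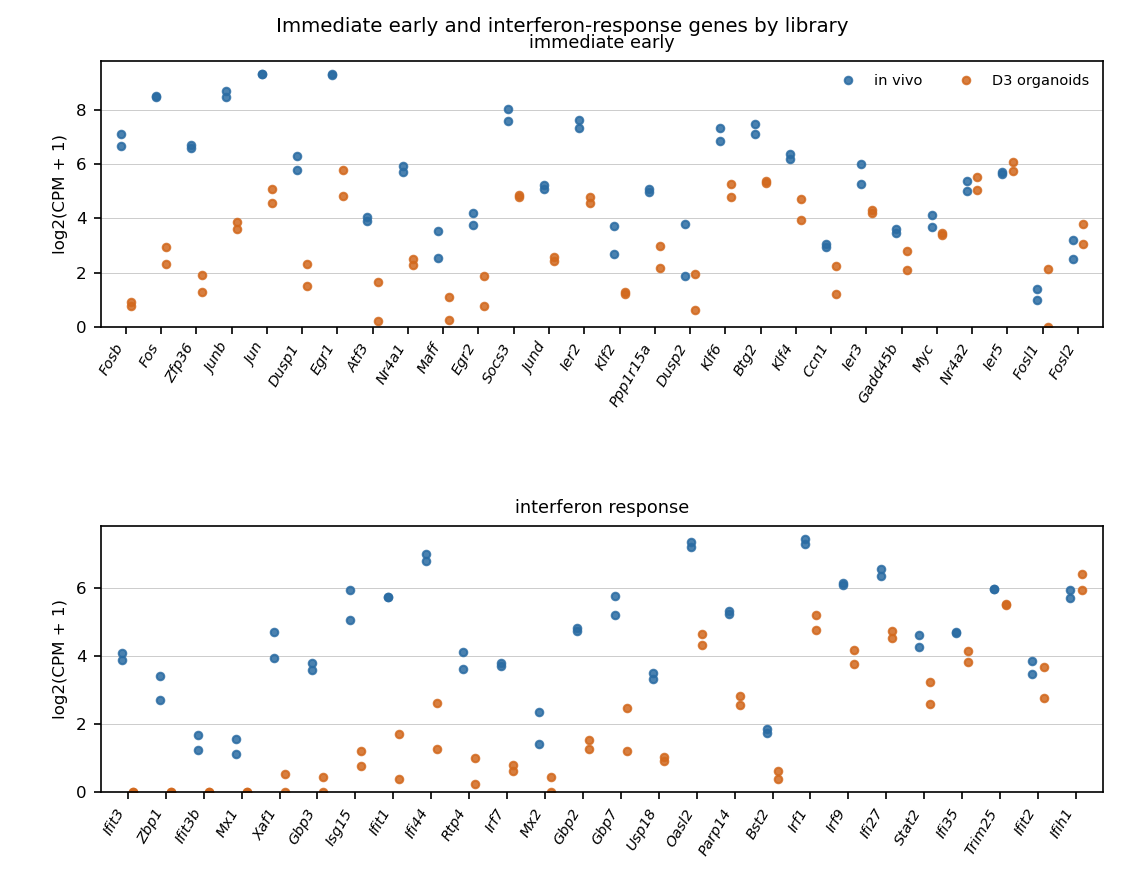
Level of tested immediate early genes (top) and interferon-response genes (bottom) in the 2 *in vivo* libraries and the 2 D3 organoid libraries, as log2(CPM + 1), with 1 point per library. Genes are ordered by log2 fold change, so that *Fosb* and *Fos* stand on the left of the top panel and *Ifit3*, at 0 in D3 organoids, on the left of the bottom panel.

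The other stress lists did not move in 1 direction. Among heat shock chaperones, 4 of 20 rose and 6 fell. *Hspa1a*, an inducible HSP70 gene, and *Dnajb1*, its cochaperone, fell by 3.0 and 1.57 on the log2 scale, whereas the small heat shock protein gene *Hspb1* rose from 9.59 and 8.26 CPM to 34 and 29.3 CPM. Of 22 genes of the ER stress and amino acid response, 5 rose and 4 fell. *Atf4*, the factor of the amino acid response, had 244 and 209.9 CPM *in vivo* and 206 and 199 CPM in D3 organoids and was not called. *Xbp1*, a factor of the unfolded protein response, fell from 154 and 138 CPM to 53.7 and 50.6 CPM (log2 fold change -1.48, edgeR adjusted p = 2.8e-05).

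Most genes of the list of FGF receptors and feedback inhibitors rose. Of 19 genes of the FGF list tested, 13 rose and 1 fell, with a median log2 fold change of 2.09. Among the inhibitors of the pathway, *Spry1* had 24.1 and 26 CPM *in vivo* and 190.1 and 196 CPM in D3 organoids (log2 fold change 2.94, standard error 0.25, edgeR adjusted p = 5.4e-08). *Spry2* had 58 and 47.9 CPM *in vivo* and 192 and 189 CPM in D3 organoids (log2 fold change 1.85, standard error 0.20, edgeR adjusted p = 9.0e-07), and *Il17rd*, a receptor-like inhibitor, had 13.6 and 8.67 CPM *in vivo* and 213 and 221 CPM in D3 organoids (log2 fold change 4.30, standard error 0.23, edgeR adjusted p = 9.7e-11). The phosphatase gene *Dusp6*, which acts on ERK, had 85.3 and 89 CPM *in vivo* and 499.7 and 387 CPM in D3 organoids. In all 4 genes, both D3 libraries exceeded both *in vivo* libraries. The ETS factors that FGFs induce rose with them, from 17.4 and 15.4 CPM to 144 and 122 CPM in *Etv1*, from 4.13 and 9.5 CPM to 33.8 and 40.9 CPM in *Etv4* and from 17.7 and 24.2 CPM to 98.2 and 88.4 CPM in *Etv5*. *Fgfr2*, which includes the splice form that binds FGF7, had 209 and 189 CPM *in vivo* and 184 and 172 CPM in D3 organoids and was not called (log2 fold change -0.16, edgeR adjusted p = 0.56). *Fgfr1* rose from 1.32 and 2.61 CPM to 28.2 and 28.7 CPM (log2 fold change 3.81, standard error 0.35, edgeR adjusted p = 1.1e-07). *Dusp5*, the phosphatase of nuclear ERK, was the gene that fell, from 30.9 and 22.8 CPM to 6.3 and 2.86 CPM (log2 fold change -2.58, standard error 0.35, edgeR adjusted p = 1.5e-05).

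Cell cycle genes rose as groups, by modest amounts. Of 43 S-phase genes tested, 33 rose and 0 fell, with a median log2 fold change of 0.86. Of 54 G2/M-phase genes, 33 rose and 0 fell, with a median of 0.69. Summed over the list, S-phase genes had 2353 and 2089 CPM *in vivo* and 4315 and 3716 CPM in D3 organoids. *Rrm1*, a subunit of the enzyme that makes deoxyribonucleotides, had 103 and 108 CPM *in vivo* and 234 and 194 CPM in D3 organoids (log2 fold change 1.02, standard error 0.16, edgeR adjusted p = 7.1e-05). *Mcm6*, part of the replicative helicase, had 141 and 124 CPM *in vivo* and 245 and 235 CPM in D3 organoids (log2 fold change 0.86, standard error 0.17, edgeR adjusted p = 8.4e-04). *Chaf1b*, of the factor that loads histones behind the replication fork, had 11.4 and 5.78 CPM *in vivo* and 30.8 and 36.8 CPM in D3 organoids (log2 fold change 1.99, standard error 0.32, edgeR adjusted p = 1.1e-04). For these genes each D3 library lay above each *in vivo* library. *Top2a*, which untangles replicated DNA, rose by 0.69 on the log2 scale, and *Cenpf*, a kinetochore protein, had 289 and 325 CPM *in vivo* and 339.6 and 331 CPM in D3 organoids and was not called (log2 fold change 0.13, standard error 0.15, edgeR adjusted p = 0.57). Without D3 replicate 1, the calls went down to 18 S-phase and 19 G2/M-phase genes.

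E2F factors drive genes of DNA replication, and the factor NF-Y binds the CCAAT box of many mitotic genes. Members that were called and hold these motifs within the 250 bases before the start include *Mcm5*, a helicase subunit with 37 and 49 CPM *in vivo* and 84.4 and 93.4 CPM in D3 organoids, and *Psrc1*, a spindle protein with 16.5 and 27.9 CPM *in vivo* and 57.4 and 53.6 CPM in D3 organoids. Their promoters are shown with the motifs in capitals (chr8:75109259-75109508 on the plus strand and chr3:108383554-108383803 on the plus strand of GRCm38.p6, RefSeq).
Mcm5: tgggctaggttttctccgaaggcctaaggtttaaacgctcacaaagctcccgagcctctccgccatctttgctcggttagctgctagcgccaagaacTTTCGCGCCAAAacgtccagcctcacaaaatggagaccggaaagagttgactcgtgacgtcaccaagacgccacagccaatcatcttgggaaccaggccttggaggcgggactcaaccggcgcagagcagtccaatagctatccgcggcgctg
Psrc1: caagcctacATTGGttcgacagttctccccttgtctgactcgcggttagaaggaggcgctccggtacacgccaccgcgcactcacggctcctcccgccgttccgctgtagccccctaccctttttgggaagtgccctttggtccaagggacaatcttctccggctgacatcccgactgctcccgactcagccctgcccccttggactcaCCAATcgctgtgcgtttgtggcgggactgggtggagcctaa
In *Mcm5*, 2 E2F matches on opposite strands overlap. The search for E2F used TTTCCCGC, TTTCGCGC, TTTGCCGC and TTTGGCGC on both strands. It matched 12 of 31 promoters of S-phase genes (38.7%) and 4.78% of all promoters. CCAAT on either strand was found in 36 of 47 promoters of G2/M-phase genes (76.6%) and in 43% of all. For cortical TEC genes, the 5-base core of the FOXN1 site, GACGC, was found in 6 of 12 promoters (50%), beside 50.6% of all.

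Regulators of entry into the cycle, both activators and inhibitors, were among the genes that rose. Of 24 G1 regulators tested, 12 rose and 2 fell, with a median log2 fold change of 0.56. *Ccnd1*, the cyclin that growth factors induce, had 17.5 and 16.7 CPM *in vivo* and 265 and 189 CPM in D3 organoids (log2 fold change 3.73, standard error 0.21, edgeR adjusted p = 1.8e-10). *Ccnd2* had 912 and 1047 CPM *in vivo* and 4012 and 3789 CPM in D3 organoids (log2 fold change 1.99, standard error 0.15, edgeR adjusted p = 7.5e-09) and was the gene with the highest mean CPM in D3 organoids among those that rose at least 2-fold. *Ccne1*, the cyclin of the G1/S transition, rose from 11.9 and 11.4 CPM to 39.9 and 36.3 CPM. Of the inhibitors of the cyclin-dependent kinases, some rose. *Cdkn1a*, which encodes p21, had 20.7 and 21.7 CPM *in vivo* and 111 and 59.6 CPM in D3 organoids (log2 fold change 2.00, standard error 0.24, edgeR adjusted p = 2.9e-06), and *Cdkn2a*, the locus of p16 and p19, had 0.992 and 1.1 CPM *in vivo* and 4.38 and 4.72 CPM in D3 organoids (log2 fold change 2.10, standard error 0.44, edgeR adjusted p = 0.0013). For these 5 genes, both D3 libraries were above both *in vivo* libraries. The genes that fell were *Cdk6*, from 183 and 134 CPM to 43.4 and 49.8 CPM, and the imprinted inhibitor gene *Cdkn1c*, from 158 and 167 CPM to 57.1 and 40.5 CPM. *Ccnd3* had 57 and 68 CPM *in vivo* and 79.6 and 68.9 CPM in D3 organoids and was not called.

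The list with the largest share of genes that rose was that of cholesterol and fatty acid synthesis, with 26 of 30 genes higher, 0 lower and a median log2 fold change of 1.74. These genes are targets of the factors SREBP1 and SREBP2, which are released when sterols in the cell run low. *Hmgcs1*, at the entry to the mevalonate pathway, had 178 and 151 CPM *in vivo* and 701 and 562 CPM in D3 organoids (log2 fold change 1.94, standard error 0.16, edgeR adjusted p = 3.8e-08). *Cyp51*, a sterol demethylase, had 44.1 and 44.3 CPM *in vivo* and 182 and 169.9 CPM in D3 organoids (log2 fold change 1.99, standard error 0.16, edgeR adjusted p = 2.5e-08). *Sqle*, the epoxidase that opens the sterol branch, had 68.8 and 65.8 CPM *in vivo* and 193 and 189 CPM in D3 organoids (log2 fold change 1.5, standard error 0.17, edgeR adjusted p = 1.6e-06). All 3 genes were more than doubled in each D3 library. *Insig1*, which holds SREBP in the ER and is itself a target, rose from 14.4 and 7.16 CPM to 99.6 and 114 CPM, and the desaturase gene *Scd1* from 9.59 and 6.47 CPM to 80.5 and 90.5 CPM. Their sterol regulatory element, spelt TCACNCCAC, was found in 1 of 20 promoters of the list, that of *Hmgcs1*, and in 1.33% of all.

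**Figure D4:**
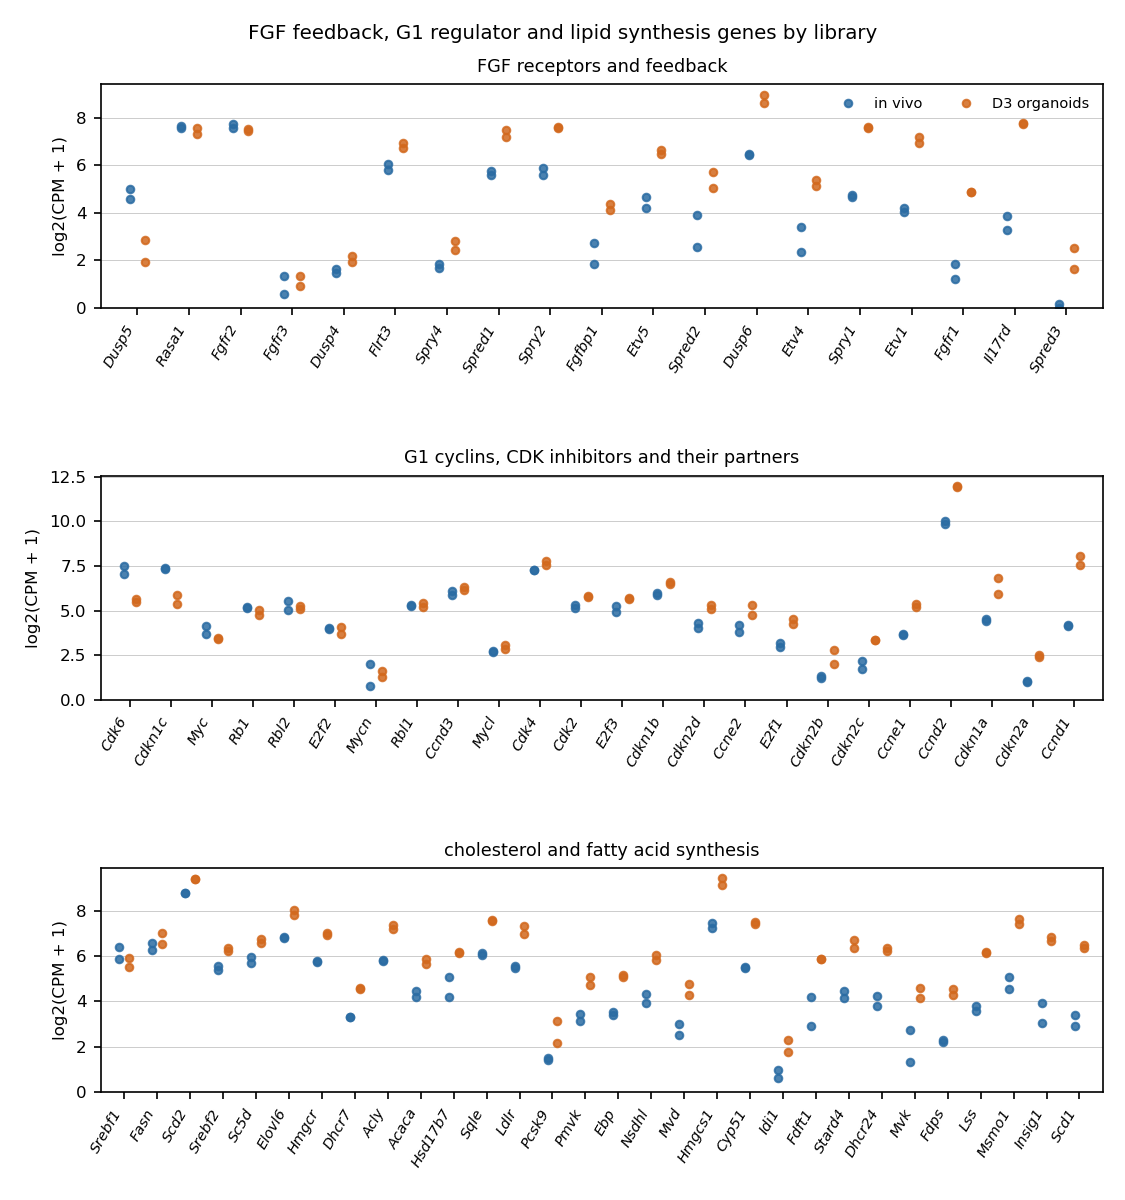
Level of each tested gene of the FGF list (top), the G1 regulators (middle) and cholesterol and fatty acid synthesis (bottom) in the 2 *in vivo* libraries and the 2 D3 organoid libraries, as log2(CPM + 1), with 1 point per library and genes ordered by log2 fold change. *Il17rd*, *Ccnd1* and *Scd1* rise from under 20 CPM *in vivo* to 80.5 CPM or more at D3.

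Other metabolic lists moved less. Of 29 genes of glycolysis and the hypoxia response, 13 fell and 6 rose. *Bnip3l*, a hypoxia-induced receptor of mitophagy, fell from 245 and 239 CPM to 44.3 and 47.9 CPM (log2 fold change -2.39, standard error 0.17, edgeR adjusted p = 3.3e-09), and *Aldoc*, an aldolase, rose from 5.29 and 7.71 CPM to 42.9 and 53.9 CPM (log2 fold change 2.88, standard error 0.24, edgeR adjusted p = 3.7e-08). *Ldha*, which makes lactate, had 295 and 246 CPM *in vivo* and 275 and 246 CPM in D3 organoids and was not called. Among 35 nuclear genes of oxidative phosphorylation, 2 rose and 1 fell, with a median log2 fold change of 0.06. Of 47 genes of cytosolic ribosomal proteins, 2 rose and 4 fell. These shares are below the background, as is that of ribosome biogenesis, where 3 of 30 rose. Targets of NRF2, the factor of the oxidative stress response, split, with 10 of 20 higher and 5 lower. *Gstm1*, a glutathione transferase, had 8.76 and 14.2 CPM *in vivo* and 532 and 481 CPM in D3 organoids (log2 fold change 5.45, standard error 0.22, edgeR adjusted p = 4.2e-12), and part of its 3′ sequence is shared with related genes. *Osgin1*, a growth inhibitor, had 0.165 and 0.413 CPM *in vivo* and 5.25 and 6.58 CPM in D3 organoids. *Srxn1*, which restores peroxiredoxins, went the other way, from 51.1 and 51.9 CPM to 12.1 and 8.29 CPM (log2 fold change -2.35, standard error 0.22, edgeR adjusted p = 1.7e-07).

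**Figure D5:**
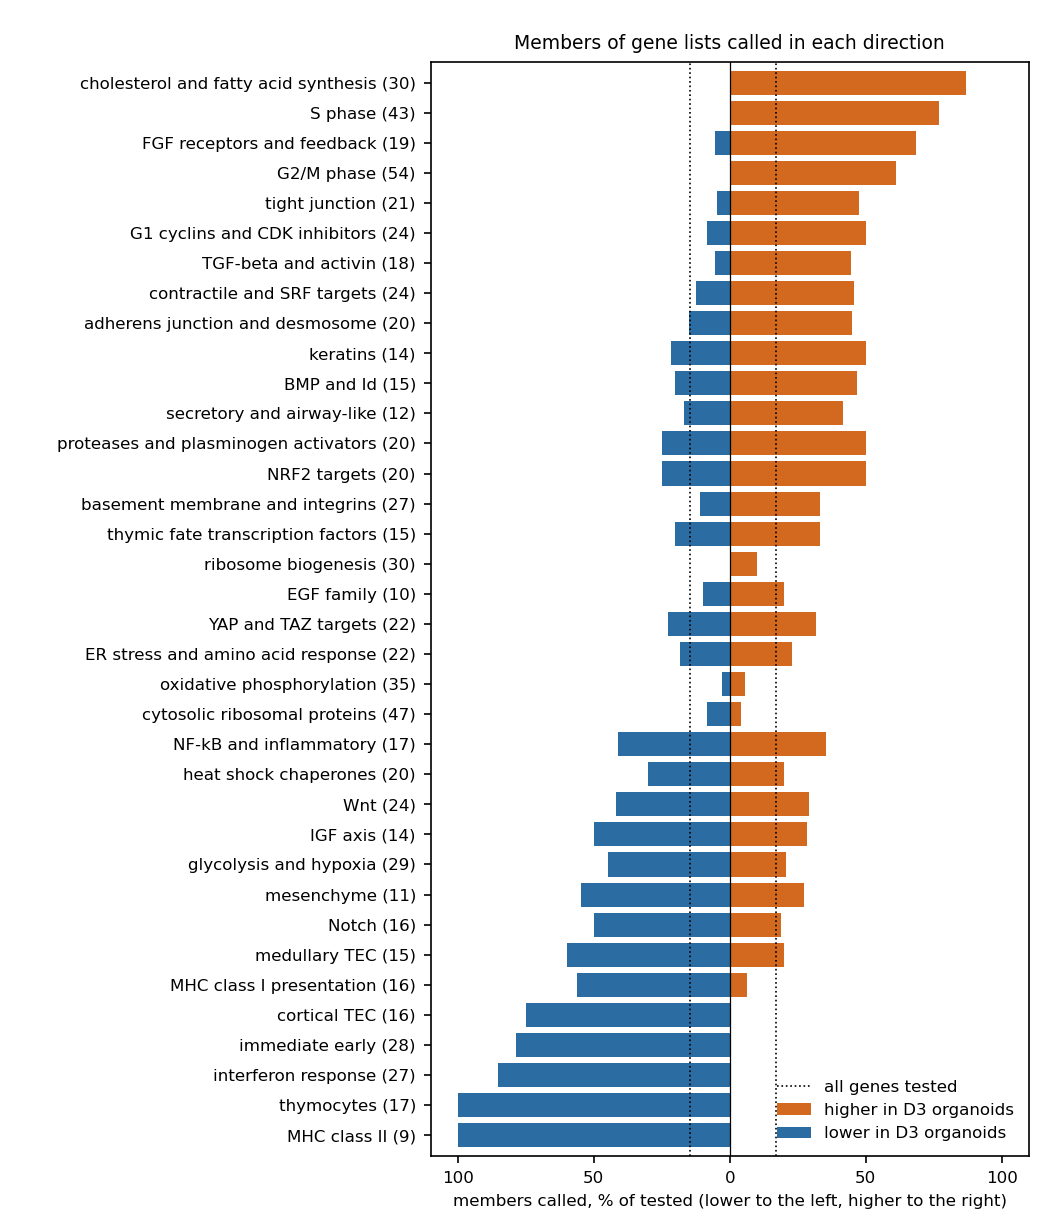
Share of the tested members of each gene list (number tested in parentheses) called lower (left) or higher (right) in D3 organoids, in percent, for lists with at least 9 tested members. The dotted lines are the shares over all genes tested, 14.6% lower and 17.0% higher, and lists are ordered from all members lower (MHC class II, thymocytes) to most members higher (cholesterol and fatty acid synthesis).

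Keratins and junction genes changed in both directions. *Epcam*, the antigen of the sort, had 182 and 200.1 CPM *in vivo* and 616 and 583 CPM in D3 organoids (log2 fold change 1.65, standard error 0.15, edgeR adjusted p = 9.8e-08), and *Cdh1*, which encodes E-cadherin, had 425 and 415 CPM *in vivo* and 540.3 and 518 CPM in D3 organoids and was not called. Of 14 keratin genes tested, 7 rose and 3 fell. Among those that rose, 3 (*Krt4*, *Krt13* and *Krt80*) were at the floor *in vivo*, which sets their direction. The summed level of the list was 2396 and 2739 CPM *in vivo* and 1035 and 839 CPM in D3 organoids. The simple-epithelial genes *Krt8* and *Krt18* had 359 and 451 CPM and 1580.1 and 1785 CPM *in vivo*, and 107 and 89.5 CPM and 276 and 256 CPM in D3 organoids. Both fell, by 2.05 and 2.66 on the log2 scale (edgeR adjusted p = 5.9e-08 and 3.1e-10). *Krt19*, a keratin of ducts and progenitors, rose from 4.3 and 8.95 CPM to 118 and 84.2 CPM (log2 fold change 3.90, standard error 0.29, edgeR adjusted p = 8.1e-09). *Krt17*, a keratin of injury and appendages, fell from 124 and 174 CPM to 46.4 and 39.5 CPM. In tight junctions, 10 of 21 genes rose and 1 fell. Among those that rose was *F11r*, an adhesion molecule, with 25.1 and 30.4 CPM *in vivo* and 73 and 71.4 CPM in D3 organoids. Of 20 genes of adherens junctions and desmosomes, 9 rose and 3 fell. *Dsp*, the plaque protein that ties keratins to desmosomes, fell from 759 and 970.4 CPM to 235 and 238 CPM (log2 fold change -1.87, standard error 0.19, edgeR adjusted p = 4.6e-07).

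The cells went from the thymic matrix into a gel rich in laminin and collagen IV. Among 27 genes of basement membrane and integrins, 9 rose and 3 fell. *Itgb1*, the β1 chain of most matrix receptors, rose from 161 and 144 CPM to 311 and 299.8 CPM (log2 fold change 1.0, standard error 0.15, edgeR adjusted p = 5.3e-05), and *Itga1*, its partner for collagens, from 3.31 and 3.72 CPM to 53 and 68.2 CPM (log2 fold change 4.10, standard error 0.26, edgeR adjusted p = 9.2e-10). *Itga6*, the laminin receptor chain, had 277 and 287 CPM *in vivo* and 349 and 356 CPM in D3 organoids and was not called. *Lamb3*, of laminin-332, fell from 33.2 and 43.6 CPM to 7.35 and 9.72 CPM. Larger falls were found for *Fn1* and *Tnc*. *Fn1*, which encodes fibronectin, had 635 and 707 CPM *in vivo* and 46.2 and 62.1 CPM in D3 organoids (log2 fold change -3.63, standard error 0.21, edgeR adjusted p = 3.1e-10), and *Tnc*, tenascin-C, had 581 and 579 CPM *in vivo* and 86.8 and 97 CPM in D3 organoids (log2 fold change -2.66, standard error 0.16, edgeR adjusted p = 3.5e-10). The protease gene *Mmp9* had 88.1 and 97.2 CPM *in vivo* and 0.875 and 1.29 CPM in D3 organoids (log2 fold change -6.37, standard error 0.31, edgeR adjusted p = 3.1e-11), and over the list of proteases, plasminogen activators and matricellular genes 10 of 20 rose and 5 fell. *Spp1*, which encodes osteopontin, rose from 0.661 and 0 CPM to 113 and 109 CPM. Of 24 contractile genes, 11 rose and 3 fell.

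Among the remaining signalling pathways, *Id* genes, targets of BMP, rose. *Id2* had 52.7 and 51.7 CPM *in vivo* and 367 and 379 CPM in D3 organoids (log2 fold change 2.84, standard error 0.16, edgeR adjusted p = 2.8e-10), *Id3* had 41.2 and 42.5 CPM *in vivo* and 164 and 162 CPM in D3 organoids (log2 fold change 1.96, standard error 0.24, edgeR adjusted p = 4.6e-06), and *Id1* had 18.2 and 23.3 CPM *in vivo* and 61.1 and 75.1 CPM in D3 organoids. All 3 genes were more than doubled in each D3 library. Over the BMP list, 7 of 15 rose and 3 fell, and the ligand gene *Bmp4* had 12.7 and 15.1 CPM *in vivo* and 14.7 and 18.9 CPM in D3 organoids and was not called. In the list of TGF-β and activin, 8 of 18 rose and 1 fell. *Inhba*, the activin A subunit, had 1 count in each *in vivo* library and 12.4 and 9.3 CPM at D3, and was at least 23.9-fold higher against the floor. The ligand gene *Tgfb3* rose from 9.09 and 10.7 CPM to 69.1 and 57.6 CPM. In the IGF axis, 4 of 14 rose and 7 fell. *Igfbp4*, which binds IGFs, had 13.4 and 13.1 CPM *in vivo* and 603 and 746 CPM in D3 organoids (log2 fold change 5.67, standard error 0.25, edgeR adjusted p = 1.0e-11), whereas the imprinted *H19*, a non-coding RNA, had 521 and 305 CPM *in vivo* and 7.88 and 11 CPM in D3 organoids (log2 fold change -5.43, standard error 0.46, edgeR adjusted p = 4.2e-08). The receptor gene *Igf1r* fell from 312 and 381 CPM to 70.4 and 103 CPM, and *Irs2*, its adaptor, from 205 and 257 CPM to 18.6 and 26.5 CPM.

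The Wnt list was divided, with 7 of 24 genes higher and 10 lower. At the floor in 1 of the groups were 5 of the 24, which sets their direction. *Lgr5*, an R-spondin receptor of stem cells, rose from 0.661 and 1.1 CPM to 27.8 and 28.5 CPM (log2 fold change 4.94, standard error 0.40, edgeR adjusted p = 2.5e-08), and *Sp5*, a direct target, had 0 counts in both *in vivo* libraries and 11.4 and 6.86 CPM at D3. *Lef1*, a nuclear effector that thymocytes also express, had 86.9 and 41.2 CPM *in vivo* and 1 count in each D3 library, and was at least 134-fold lower against the floor. *Axin2* had 8.1 and 16.9 CPM *in vivo* and 8.23 and 4.15 CPM in D3 organoids and was not called. The ligand gene *Wnt4*, which acts on *Foxn1* in TECs, fell from 205 and 211 CPM to 106 and 93.7 CPM (log2 fold change -1.06, standard error 0.17, edgeR adjusted p = 7.2e-05). *Kremen2*, a receptor that restrains Wnt, fell from 73.2 and 69.1 CPM to 0.875 and 0.715 CPM. Of 16 Notch genes, 8 fell and 3 rose. Apart from *Dll4*, those that fell include the targets *Hes1*, from 609 and 426 CPM to 186 and 191 CPM (log2 fold change -1.46, standard error 0.21, edgeR adjusted p = 3.1e-05), and *Heyl*, from 11.7 and 13.1 CPM to 0.70 and 0.286 CPM. *Hes6*, a neurogenic relative that is not counted here as a target, fell from 529.7 and 623 CPM to 58.3 and 65.2 CPM. The receptor gene *Notch1* rose from 117 and 98.3 CPM to 279.5 and 320.3 CPM (log2 fold change 1.48, standard error 0.18, edgeR adjusted p = 4.5e-06) and the ligand gene *Jag1* from 47.1 and 28.4 CPM to 86.5 and 73.1 CPM.

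The 10 genes with the largest fitted fold change in each direction were taken among called genes without overlap between the groups whose higher group had 10 CPM or more in each library. Where a group is at 0, the fitted fold depends on a prior count, so that the set is no order of measured size. *Psmb11*, which was counted in both D3 libraries, is not in the set, although its fall was larger than the bounds of genes in it. *Gria2*, a subunit of AMPA-type glutamate receptors, had 0.331 and 0 CPM *in vivo* and 313 and 384 CPM in D3 organoids and was at least 767-fold higher. *Dmp1*, a protein of mineralized matrix, and *Cntn2*, an axonal adhesion molecule, had 0 counts in both *in vivo* libraries and 93.6 and 69.4 CPM and 64.8 and 60.6 CPM at D3. They were at least 179-fold and 138-fold higher. *Fmo2*, a flavin monooxygenase, had 0.826 and 0.688 CPM *in vivo* and 363 and 332 CPM in D3 organoids (log2 fold change 8.82, standard error 0.26, edgeR adjusted p = 5.6e-14), and its neighbour on chromosome 1, *Fmo6*, had 0.331 and 0.963 CPM *in vivo* and 174 and 121 CPM in D3 organoids. *Ppbp*, a platelet-type chemokine gene, had 0 counts *in vivo* and 26.8 and 22 CPM at D3, beside 832 and 595 CPM in 2D. The other genes of this set were *Scube1*, *Gm48972*, *Spp1* and *Dkk3*. *Dkk3*, a secreted glycoprotein, had 0 and 0.138 CPM *in vivo* and 21.4 and 26.7 CPM in D3 organoids. In *Ppbp* and *Dkk3*, both 2D libraries were above both D3 libraries, at 61.7 and 51 CPM for *Dkk3*.

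Among the genes that fell in this set, *Myh11*, the smooth muscle myosin, had 76.2 and 76.4 CPM *in vivo* and none in D3 organoids, which is at least 159.9-fold lower. *Umodl1* had 70.6 and 63 CPM *in vivo* and 0 counts at D3 (at least 140.0-fold lower). The metalloproteinase gene *Adam19* and the calcium-binding *S100a2* had 56.2 and 30.6 CPM and 31.9 and 46.8 CPM *in vivo* and were at 0 as well. *Trgc2* and *Cd3g* in this set are genes of T cells, and reads of *Trgc2* may also come from its near copies. The others were *Ppp1r27*, *Gm37563*, *Ppp1r16b* and *Tbata*. The 10 most abundant genes that rose at least 2-fold included, beside *Ccnd2*, *Atp1b1*, a subunit of the sodium pump, with 66.3 and 54.8 CPM *in vivo* and 1921 and 1597 CPM in D3 organoids (log2 fold change 4.86, standard error 0.18, edgeR adjusted p = 1.6e-12). They also included *Wfdc2*, a secreted protease inhibitor, with 57.2 and 58.5 CPM *in vivo* and 921 and 1066 CPM in D3 organoids, and *Mdk*, a heparin-binding growth factor, with 412 and 457 CPM *in vivo* and 866 and 1065 CPM in D3 organoids. Others were *Amotl1*, *Itm2b*, *Tsc22d1*, *Meis2* and *Tmem176b*. Those that fell were led by *Ctsl*, *Prss16*, *Krt18*, *Pax1*, *Cstb* and *Nfkbia*. *Cstb*, an inhibitor of cathepsins, had 1271 and 1218 CPM *in vivo* and 138 and 149 CPM in D3 organoids (log2 fold change -3.11, standard error 0.23, edgeR adjusted p = 8.1e-09), and *Nfkbia*, the inhibitor of NF-κB, had 808 and 946 CPM *in vivo* and 286 and 258 CPM in D3 organoids (log2 fold change -1.69, standard error 0.16, edgeR adjusted p = 1.6e-07). *Dsp*, *Fabp5*, *Pds5b* and *Tmem131l* complete these 10.

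Transcripts of other cell types were counted in the *in vivo* libraries, above all those of thymocytes, although the sort stained for markers of blood, endothelial and mesenchymal cells. All 17 tested genes of thymocytes fell, with a median log2 fold change of -7.98 (-5.25 with genes at the floor set to their bound). Of these, 13 were at the floor in D3 organoids and so passed the filter only through the *in vivo* libraries, which sets their direction. *Cd4*, *Cd8a*, *Cd8b1*, *Cd2* and *Cd5* of the list did not pass the filter. The summed level of the list was 1267 and 585 CPM in the *in vivo* libraries and 38.9 and 37.3 CPM in the D3 libraries. *Rag1*, the recombinase of antigen receptors, had 273 and 129.9 CPM *in vivo* and 0.175 and 0.429 CPM in D3 organoids, and *Cd3g* had 61.8 and 18.3 CPM *in vivo* and 0 counts at D3. *In vivo* replicate 1 was the higher of the pair for most of these genes. *Cd3g*, *Lat*, *Ptcra* and *Rag2* were at 0 in both D3 libraries, of which *Ptcra* and *Rag2* were named after their values were seen. In D3 organoids, the genes of the list still counted were chiefly *Bcl11b*, with 23.6 and 26.3 CPM, and *Tcf7*, with 9.98 and 5.58 CPM. Mesenchymal genes summed to 86.9 and 88.9 CPM *in vivo* and 57.6 and 57.2 CPM at D3, and endothelial genes to 6.94 and 10.7 CPM and then 1.58 and 4.0 CPM. The mesenchymal list was split, with 3 of 11 tested genes higher at D3 and 6 lower, and 3 of the 11 were at the floor in 1 group. Erythroid genes summed to 6.94 and 12.2 CPM *in vivo* and 0 and 0.143 CPM at D3, and *Pth*, of the parathyroid, fell from 65.1 and 48.2 CPM to 5.6 and 6.44 CPM. In bulk samples, fewer cells of a type and less RNA per cell cannot be told apart. The part that thymocyte RNA had in the fall of genes that both cell types express, such as *Lef1*, *H2-K1* and *Jun*, was not tested. The cortical genes and class II genes summed to 9285 and 9373 CPM and 1743 and 1797 CPM in *in vivo* replicates 1 and 2. The part of thymocyte RNA in the falls of these lists was not tested either.

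TECs kept for the same 3 days on laminin-coated plastic were compared with D3 organoids as a second culture. By the paper's methods, both cultures were kept in the medium with FGF7, so neither group lacked it. The methods give thiazovivin for organoids and do not mention it separately for 2D. The comparison shares the D3 libraries with the one above and used the same genes, of which 20.1% were higher in D3 organoids than in 2D and 17.4% lower. Of 16 cortical genes, 4 were higher in D3 organoids than in 2D and 5 lower. *Psmb11* had 0.554 and 0.559 CPM in 2D and *Dll4* 0.554 and 0 CPM, and *Foxn1*, at 8.69 and 4.84 CPM, did not differ past the threshold from D3 organoids (log2 fold change of D3 over 2D 0.49, edgeR adjusted p = 0.21). *Cxcl12* had 6.28 and 5.59 CPM in 2D (log2 fold change of D3 over 2D 5.48, edgeR adjusted p = 1.7e-12), and *Kitl* had 14.2 and 17 CPM (3.67, edgeR adjusted p = 5.0e-11). *Ctsl* went the other way, with 727 and 615 CPM in 2D (-2.36, edgeR adjusted p = 2.8e-09), as did *Ccl25*, with 9.98 and 7.45 CPM (-1.22, edgeR adjusted p = 0.0049). Cell cycle genes were higher in D3 organoids than in 2D in 43 of 43 S-phase and 47 of 54 G2/M-phase genes. In the FGF list, 11 of 19 genes were higher and 4 lower than in 2D, with 23.8 and 23.1 CPM of *Il17rd* and 77.1 and 54.2 CPM of *Spry1* in 2D. Lower values in D3 organoids than in 2D were found for immediate early genes, 18 of 28 called and 0 in the other direction, for contractile genes (19 of 24 lower) and for tight junction genes (15 of 21 lower).

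Of 30 genes of cholesterol and fatty acid synthesis, 14 were higher in D3 organoids than in 2D and 0 lower. Class II genes were also low in 2D, summing to 52.7 and 46.6 CPM, and 4 of 9 were higher in D3 organoids. For the interferon response, 8 of 27 were lower in D3 organoids than in 2D and 2 higher. *Gria2* had 0.185 and 0.745 CPM in 2D and 277 and 259 CPM in D7 organoids, and *Fmo2* had 1.29 and 1.86 CPM and 1142 and 1043 CPM. *Foxn1* in D7 organoids, at 60.2 and 83.7 CPM, lay between D3 organoids and *in vivo* TECs in both libraries. At day 7, *Psmb11* had 106 and 111 CPM and *Il7* had 193 and 144 CPM. The D7 values are given without a test. Of the lists not described so far, 6 of 17 NF-κB and inflammatory genes were higher in D3 organoids than *in vivo* and 7 lower, and 7 of 22 YAP and TAZ targets were higher and 5 lower. In the EGF family, 2 of 10 were higher and 1 lower.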

How the data were processed

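QuantSeq 3′ libraries of 8 samples were used, 2 per group. The authors aligned reads with STAR to GRCm39, and the deposited files hold raw counts per gene for each library. Per the labels, R 4.1.2, edgeR and limma were used later by the submitters. The annotation release, the use of strand and the treatment of reads with several matches are not given in the sources used here.

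Genes were kept where 2 or more of the 4 libraries compared reached 1 CPM (14487 of 56923). Library sizes were scaled with TMM in edgeR 4.0.16 (R 4.3.3). All 8 libraries entered 1 quasi-likelihood fit without a block, and p-values were adjusted by the Benjamini-Hochberg method over all genes tested, with a threshold of 0.05. The fit was tested on simulated data of this comparison with 14487 genes, where 83% of genes changed 4-fold and 47% of those changed 2-fold were called. A gene with at most 3 counts in both libraries of a group was treated as at the floor, and its fold is given as a bound. Gene coordinates are from GENCODE on GRCm39, and promoter sequences from RefSeq on GRCm38.p6, matched by symbol.

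The genes named were the 10 with the largest fitted change and the 10 most abundant in each direction, the most abundant and most changed members of each list, and members of the lists of TEC, presentation and signalling genes. *Mcm5* and *Dusp1* were named for their promoters, as the called members with the largest change among those with the motif in the 250 bases before the start. The comparison and the lists were chosen with earlier results of these data known, and the sterol and FOXN1 motifs were added after the lists had been counted. Alternatives comprised other scalings, filters, tests and samples, and leaving out each library. Some genes that met these rules are not reported here.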

Additional observations from a re-analysis of the deposited data

How the results depend on the processing

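No gene called in the comparison of D3 organoids and *in vivo* TECs was called in the opposite direction under any alternative run, and 2511 calls (54.9%) were kept with each library left out in turn, with 3278 to 4068 genes called. Totals ranged from 3140 to 4969 over all alternatives, with 4046 by DESeq2's Wald test and 4940 by limma-voom. Of the calls, 53.9% were higher in D3 organoids in the fit reported, but 47.9% with DESeq2's size factors, 48.3% by DESeq2's Wald test, 46.2% with the 4 libraries alone, 48.2% without ribosomal RNA genes and 48.6% among changes of at least 2-fold. With a change of at least 2-fold asked for, 1525 genes rose, among them 15 S-phase and 8 G2/M-phase genes. With a mean of at least 10 CPM, which leaves fewer genes, 1307 genes fell, among them 5 medullary, 13 interferon-response and 11 thymocyte genes, and 3 tight junction genes rose. Leaving out a library left between 18 and 31 S-phase and 19 and 37 G2/M-phase genes called higher, both the lowest without D3 replicate 1. Of genes that were not called, *Ldha* had log2 fold changes from -0.18 without *in vivo* replicate 2 to 0.08 without *in vivo* replicate 1, and *Pax9* from -0.25 without *in vivo* replicate 1 to 0.028 without *in vivo* replicate 2. *Cdkn2a* was not called with the 4 libraries alone (edgeR adjusted p = 0.084), nor *Fezf2*, *Trgc2*, *Lat*, *Ptcra* and *Rag2* by DESeq2. The causes were not tested. With the replicate number as a block, 4969 genes were called, among them 98.6% of the calls made without it. The deviations of same-numbered libraries of these 2 groups correlated with r = 0.0842 across genes, so that the numbers were not taken to pair the samples. The depth limits what can be said of genes near 1 CPM.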
